A study of Mus musculus with 28 samples.

Results

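The samples described here are the label-retaining (GFP+) thyroid cells of H2B-GFP mice at 6 months of age, set against the same fraction at 3 months. They were chosen by their labels alone, as the freshly sorted GFP-positive thyroid gland cells of each age, and make up 8 of the 28 libraries of the study, 4 at each age. The GFP-negative (GFP-) thyroid cells of the same ages, also 4 libraries each, serve as the comparison for the change with age. Genotype is given as H2B-GFP for every group, and no group has another stated treatment. The promoter that drives the reporter, any chase period, and the strain and sex of the mice are not given in the sources used here. The labels do not say whether the 4 libraries of a group came from separate animals or from pools, and the p-values below cover nothing beyond the variation among these libraries.

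H2B-GFP is a fluorescent histone that is built into chromatin. Once its synthesis stops, each cell division dilutes it, so a cell that stays bright has divided rarely since labelling. The thyroid is a slowly renewing endocrine gland of follicles that make thyroglobulin and thyroid hormone, with calcitonin-producing C cells between them and a dense net of capillaries and fibroblasts around them. The parathyroid glands, which secrete parathyroid hormone to hold blood calcium steady, lie on or inside the thyroid and can be dissected with it.

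The libraries differed greatly in depth, and this limits every value below. Reads in genes were 1562, 5896, 18639 and 174957 in 3-month replicates 1 to 4, and 85074, 76308, 195513 and 507 in 6-month replicates 1 to 4. At 3 months, 1 library held most of the reads, and 3 of the 8 libraries had under 10000. One read was worth 5.72 to 640 CPM (reads per 1000000 reads in genes) at 3 months and 5.11 to 1972 CPM at 6 months. A gene with 0 reads in a library can therefore be present at up to 15.3 to 5917 CPM, the level of 3 reads. The shallow libraries also had more reads outside genes: 64.9 and 67.0% in 3-month replicates 1 and 2 and 85.8% in 6-month replicate 4, against 21.8 to 28.6% in the other 5. The limits for 0 reads and the intervals of summed ratios cover counting error only, whereas fitted intervals and SE come from the spread between libraries, and the kit's reads are not counted as separate molecules.

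**Figure D1:**
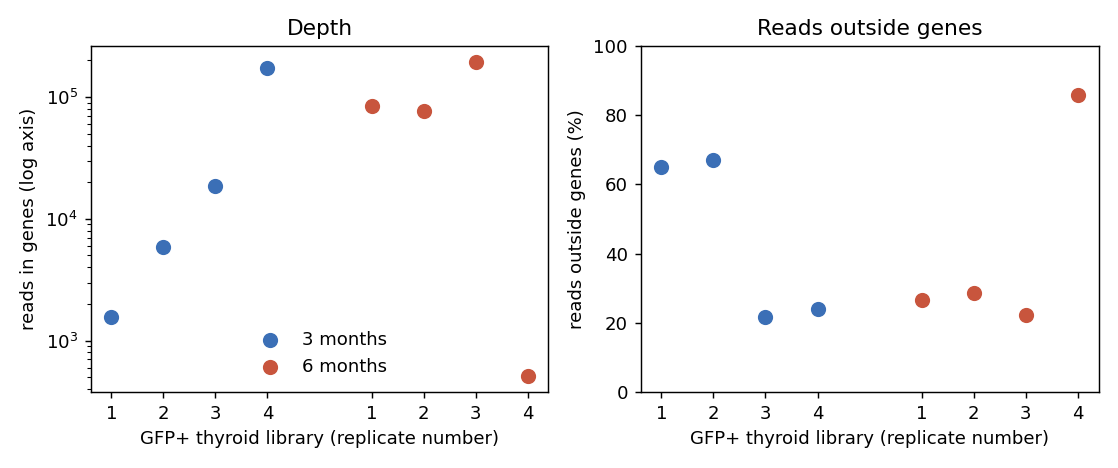
Reads in genes (log axis) and the percent of reads outside genes (no-feature row) for each of the 8 GFP+ thyroid libraries, 3 months in blue and 6 months in red. The libraries with 507, 1562 and 5896 reads in genes are also those with the highest percent outside genes.

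Between 3 and 6 months, 12 genes rose and 2 fell in the GFP+ fraction. Among the genes that rose were 3 of the parathyroid list, Pth (parathyroid hormone), Gata3 (a transcription factor needed for parathyroid development) and Kl (klotho, the co-receptor for the hormone FGF23), and Chga (chromogranin A, a protein of hormone granules), which is in the C cell list. The others were Spp1, Kansl1l, Tspan6, Lrrn1, Gdpd1, Tbc1d1, Npnt and Psmc5. The genes that fell were Bpifa1, a secreted airway protein, and Zfp711, a zinc finger transcription factor. No thyroid hormone synthesis, fibroblast, endothelial, quiescence or immediate early gene among those listed for testing passed.

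These counts come from the quasi-likelihood test of edgeR on 1900 genes, adjusted by Benjamini-Hochberg, so 0.632% of the genes tested rose and 0.105% fell, 0.737% in all. At an unadjusted p under 0.05, 67 genes (3.53%) were higher and 30 (1.58%) lower. The median log2 fold change of all genes tested was 0.19. In simulated counts with the same spread for all genes, the test called 2% of 2-fold and 32% of 4-fold changes, and falls less often than rises. A list with 0 calls can therefore hold changes of this size. The calls rested on single libraries: edgeR called 0 genes without 6-month replicate 3 (60 at an unadjusted p under 0.05), and without 3-month replicate 4 it called only Spp1 higher and Zfp711 lower, while the median of all genes moved to 0.81.

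**Figure D2:**
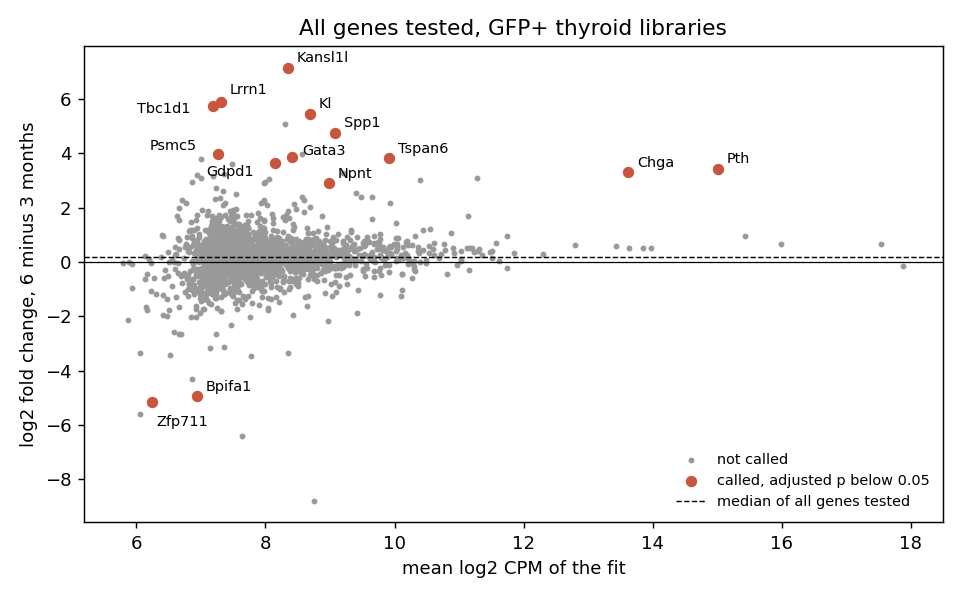
Fitted log2 fold change (6 minus 3 months, GFP+ thyroid) against mean log2 CPM for the 1900 genes tested; each point is a gene, red points passed an adjusted p of 0.05, and the dashed line is the median of 0.19. Pth and Chga are abundant, and the other called genes sit at low to middle levels.

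Pth had the largest read counts of the genes that rose. It had 8, 17, 111 and 422 reads in the 4 libraries at 3 months, which is 5122, 2883, 5955 and 2412 CPM. At 6 months it had 1862, 808, 11905 and 13 reads, or 21890, 10590, 60890 and 25640 CPM. Every 6-month library lay above every 3-month library, so the groups did not overlap. The means were 4093 ± 1714 CPM at 3 months and 29750 ± 21720 CPM at 6 months (SD, n = 4), and the fitted log2 fold change was 3.43 ± 0.843 (SE; edgeR adjusted p = 0.0110). Over summed reads the ratio was 14.7 (95% counting interval 13.5 to 16). Without 6-month replicate 3, the fitted value of Pth was 2.19 (edgeR adjusted p = 0.903). It stayed called in 10 of 19 alternatives, with edgeR or DESeq2 adjusted p from 6.35e-06 to 0.903. In bulk samples such as these, more parathyroid cells in the sort and more of the RNA per cell cannot be told apart.

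Chga, which parathyroid cells and C cells both express, had the same order of CPM as Pth over 6-month replicates 1 to 3. It had 4, 4, 44 and 175 reads at 3 months and 681, 402, 4105 and 0 at 6 months. The 3 deeper 6-month libraries, at 5268 to 21000 CPM, lay above all 3-month libraries, at 678.4 to 2561 CPM, and 6-month replicate 4 had no read of it. The log2 fold change was 3.29 ± 0.863 (edgeR adjusted p = 0.0288).

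Gata3 and Kl had few reads at 3 months. Gata3 had 0, 0, 0 and 4 reads at 3 months and 16, 6, 95 and 0 at 6 months, and rose by 3.85 ± 0.938 on the log2 scale (edgeR adjusted p = 0.0110). Kl had a single read at 3 months, in replicate 4, and 17, 5, 95 and 0 reads at 6 months. Its summed ratio was 65.8, with a wide counting interval of 11.6 to 2620, and its log2 fold change was 5.45 ± 1.16 (edgeR adjusted p = 0.00168). In both genes the shallowest 6-month library had 0 reads, so the groups overlapped at 0. Of the parathyroid list of 5 genes, 3 were tested and all 3 rose. The other members had too few reads for a test: Gcm2, the regulator of parathyroid fate, had 0 reads at 3 months and 2, 0, 10 and 0 at 6 months, and Casr, the calcium-sensing receptor, had 0 at 3 months and 7 in 6-month replicate 3. Summed over the list, the level was 2441 to 5955 CPM in the 3-month libraries and 10730 to 61950 CPM in those at 6 months.

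**Figure D3:**
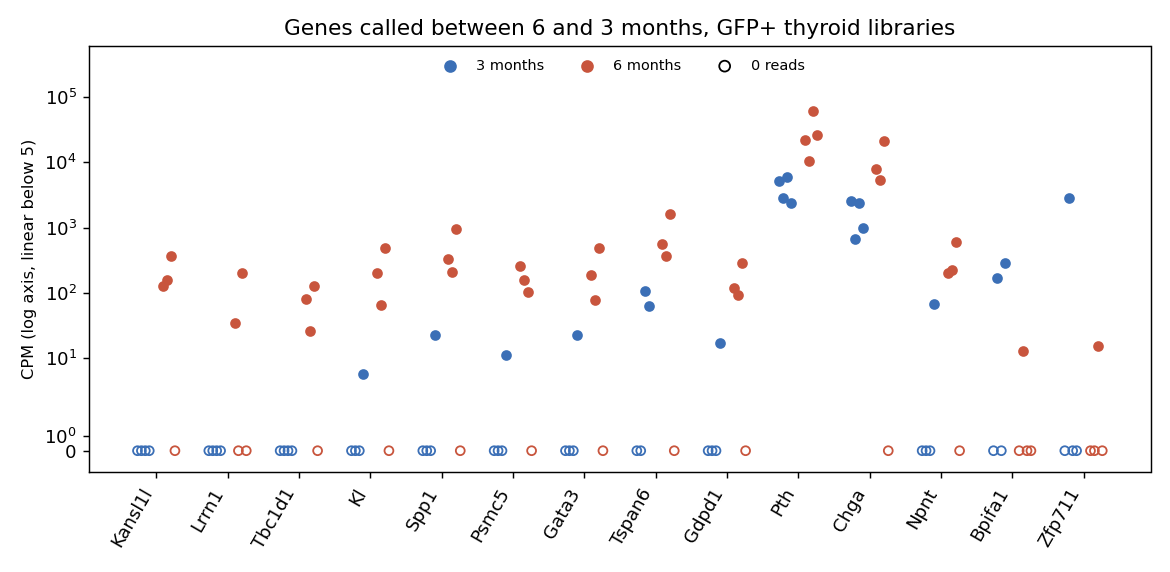
CPM of the called genes in each GFP+ thyroid library, 3 months in blue and 6 months in red; open symbols are libraries with 0 reads of the gene. Pth is higher in every 6-month library, while most other genes that rose have 0 reads in 3-month replicates 1 and 2 and in 6-month replicate 4.

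The bases just before the transcription start of Pth and Kl are shown because these are the parathyroid genes with the most reads and with the lowest adjusted p. They come from RefSeq on build GRCm38.p6, which is not the mm9 build of the counts, and run 5′ to 3′ on the strand of the gene. Pth lies at chr7:113388574-113388823 on the minus strand and Kl at chr5:150952357-150952606 on the plus strand. Capitals mark matches to TATAAA and to AGATAA (a motif of the GATA family, here as its reverse TTATCT).
Pth: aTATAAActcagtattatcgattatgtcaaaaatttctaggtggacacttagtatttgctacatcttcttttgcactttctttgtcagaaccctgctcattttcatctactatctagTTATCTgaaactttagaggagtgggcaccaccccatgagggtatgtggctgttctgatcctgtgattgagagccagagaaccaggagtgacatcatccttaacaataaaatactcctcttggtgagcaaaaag
Kl: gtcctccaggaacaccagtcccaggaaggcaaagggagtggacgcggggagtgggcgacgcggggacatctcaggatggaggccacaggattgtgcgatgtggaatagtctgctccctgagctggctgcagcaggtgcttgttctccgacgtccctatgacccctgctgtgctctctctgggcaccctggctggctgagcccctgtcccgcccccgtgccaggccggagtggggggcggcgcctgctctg
AGATAA, on either strand, was in 10% of 32851 RefSeq windows of this length. The 12 genes that rose had 16 such windows, of which 1, that of Pth, held it. TATAAA, on either strand, was in 12.4% of all windows and in 3 of these 16, 1 each for Kansl1l, Pth and Spp1. The matches of the motifs in the Pth window do not overlap. A match describes the letters only, and nothing was measured at these windows.

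Among the other genes that rose, Spp1 had the lowest adjusted p together with Kansl1l. Spp1 encodes osteopontin, a secreted phosphoprotein of mineralised matrix and many epithelia. It had 0, 0, 0 and 4 reads at 3 months and 28, 16, 185 and 0 at 6 months, a summed ratio of 32.2 (12.4 to 119) and a log2 fold change of 4.75 ± 0.947 (edgeR adjusted p = 0.000634). Kansl1l, a paralogue of a subunit of a histone acetyltransferase complex, had 0 reads in every 3-month library and 11, 12, 71 and 0 at 6 months. Set against 3 reads over the summed 3-month libraries, it was at least 17.6-fold higher (edgeR adjusted p = 0.000634). Spp1, Kansl1l and Kl were the calls that held under the most alternatives: 17, 16 and 15 of 18. The fit of the compared groups alone did not test these 3, as they had too few reads there. Each of the 3 lost its call without 6-month replicate 3, with edgeR adjusted p of 0.186, 0.0753 and 0.335 in that order. Over the alternatives these ran from 3.79e-05 to 0.186, 9.68e-05 to 0.119 and 0.000168 to 0.335.

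Tspan6, a four-pass membrane protein of the tetraspanin family, was at 0, 0, 107.3 and 62.9 CPM at 3 months and 564.2, 366.9, 1611 and 0 CPM at 6 months (log2 fold change 3.81 ± 0.875, edgeR adjusted p = 0.00556). Npnt encodes nephronectin, an integrin ligand of basement membranes. Its reads were 0, 0, 0 and 12 at 3 months and 17, 17, 117 and 0 at 6 months (2.89 ± 0.800, edgeR adjusted p = 0.0448). In both, the 3 deeper 6-month libraries were above every 3-month library and the shallowest was at 0.

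The remaining 4 genes that rose had few reads. Lrrn1, a leucine-rich repeat membrane protein, had 0 reads at 3 months and 3, 0, 39 and 0 at 6 months, so it was at least 7.88-fold higher (edgeR adjusted p = 0.0299). Tbc1d1, a GTPase-activating protein for Rab proteins in vesicle traffic, had 0 reads at 3 months and 7, 2, 25 and 0 at 6 months, at least 6.38-fold higher (edgeR adjusted p = 0.0448). Gdpd1, a glycerophosphodiester phosphodiesterase, had 3 reads at 3 months, all in replicate 4, and 10, 7, 56 and 0 at 6 months, a summed ratio of 13.7 (4.50 to 67.9; edgeR adjusted p = 0.0364). Most of the 6-month reads of these 3 were in replicate 3, which held 54.7% of all 6-month reads in genes. Psmc5, an ATPase subunit of the proteasome, was spread otherwise, with 2 reads at 3 months and 22, 12, 20 and 0 at 6 months (summed ratio 15.2, 4.01 to 129; edgeR adjusted p = 0.0452).

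The calls of the genes that rose rested on 6-month replicate 3, since 0 genes were called without it. Their pattern over libraries is thus partly set by how they were chosen. Among the 3 deeper 6-month libraries, 11 of the 12 had their highest CPM in replicate 3, and 9 followed the order of Pth, with replicate 3 above 1 and 1 above 2. The share of all genes tested with this peak or order was not computed. Among the 5 libraries over 10000 reads, 11 of the 12 (all but Lrrn1) did not overlap between ages, beside 162 of all genes tested (8.53%) that were higher and 228 (12%) that were lower without overlap. Replicate 3 held 37.0 to 92.9% of the 6-month reads of each, beside 54.7% of all 6-month reads in genes. All but 2 had 0 reads in 3-month replicates 1 and 2, and all but Pth had 0 in 6-month replicate 4. These libraries had 1562, 5896 and 507 reads in genes, where few genes can reach a read. Together the 12 genes took 0.768, 0.356, 0.842 and 0.362% of the reads at 3 months and 3.20, 1.72, 8.71 and 2.56% at 6 months. The part of parathyroid content in the other calls was not tested.

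Per 1000 Pth reads, summed over the libraries of an age, most values of the genes that rose rested on few reads at 3 months. Chga had 407 reads at 3 months and 356 at 6 months, and Tspan6 had 23.3 and 26.8. Gata3 had 7.17 and 8.02, Gdpd1 had 5.38 and 5.0, and Psmc5 had 3.58 and 3.70, but their 3-month values rest on 4, 3 and 2 reads, and Psmc5 was at 11.8, 14.9 and 1.68 in 6-month replicates 1 to 3. Spp1 had 7.17 and 15.7, and Kl had 1.79 and 8.02, from 4 reads and a single read at 3 months. Kansl1l, Lrrn1 and Tbc1d1 went from 0 to 6.44, 2.88 and 2.33. Up to 3 reads of each could go unseen at 3 months, a level of 5.38 per 1000 Pth reads. The 0s of Lrrn1 and Tbc1d1 thus show no difference from Pth. The 6-month value of Kansl1l, 6.44, lay above that limit. Npnt had 21.5 at 3 months and 10.4 at 6 months. In GFP- cells at 3 and 6 months, Spp1 had 12 and 15.7, Kl 10.3 and 12.4, and Kansl1l 6.84 and 9.3. There Lrrn1 had 1.71 and 3.26, Tbc1d1 3.42 and 2.83, and Npnt 9.4 and 13.8. These ratios have no test.

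Of the genes lower at 6 months, Bpifa1 had 0, 1, 0 and 50 reads at 3 months and 0, 1, 0 and 0 at 6 months. All but 1 of its 3-month reads were in replicate 4. It fell by 4.94 on the log2 scale (SE 1.14, edgeR adjusted p = 0.00556), with a summed ratio of 0.0110 (0.000274 to 0.0643). The airway list of 10 genes was at 0, 508.8, 0 and 1458 CPM at 3 months, from 0, 3, 0 and 255 reads, and had 4 reads in all at 6 months, while Scgb1a1 and Scgb3a2, which define club cells, were at 0 in all 8. The part of airway tissue in this result was not tested. Zfp711 lies outside the rule for named genes and was singled out after its values were seen. It had 17 reads in 3-month replicate 2, a library of 5896 reads, 0 in the other 3, and 3 reads in 6-month replicate 3 (-5.16 ± 1.25, edgeR adjusted p = 0.0110).

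The 8 genes with the smallest p among the other genes fitted below 0 that met the rule for named genes did not pass. The rule asks for reads in at least 2 libraries of the higher group and leaves out predicted genes. Grrp1 (-4.31, edgeR adjusted p = 0.0613), Srgn, the proteoglycan core serglycin of blood and endothelial cells (-3.47, 0.0792), and Dcpp2, a salivary secretory protein (-5.60, 0.0792), were nearest. Dcpp2 had 22 of its 23 reads in 3-month replicate 4 and 0 at 6 months. It has near-identical copies, so its reads could be split among them. Dcpp3 had 151 reads in the same library, a library that holds 87.0% of the 3-month reads. The salivary acinar list was at 1921, 339.2, 107.3 and 1172 CPM at 3 months, the first from 3 reads, and at 35.26, 39.31, 40.92 and 0 CPM at 6 months. Aqp1, the water channel of capillaries, was at 640.2, 339.2, 643.8 and 451.5 CPM at 3 months and 117.5, 157.3, 35.8 and 0 at 6 months. The first 2 of these are 1 and 2 reads, and the 0 is in the library of 507 reads, where up to 5917 CPM could go unseen. The printed CPM did not overlap (518.7 ± 149.6 and 77.7 ± 72.4 CPM), and the fitted value was -1.97 ± 0.671 (edgeR adjusted p = 0.212). Cd36, a fatty acid transporter (-2.01, 0.194), Apold1, an endothelial early response gene (-2.17, 0.228), Stag2, a cohesin subunit (-1.78, 0.404), and Cytl1, a secreted cartilage protein (-2.57, 0.422), completed the set. Of all genes tested, 8 (0.421%) had 3-month values all above the 6-month values, Aqp1 and Ptprb among them, and 5 (0.263%) the reverse, among them Pth. Ptprb, a phosphatase of endothelial cells, was chosen after its values were seen.

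Thyroid genes were present at both ages. Tg, which encodes thyroglobulin, was at 1921, 1018, 1931 and 3675 CPM at 3 months and 3421, 1586, 2368 and 0 CPM at 6 months. The means were 2136 ± 1112 CPM against 1844 ± 1441 (SD, n = 4), with overlapping groups and a log2 fold change of 0.29 (95% interval -1.23 to 1.80, edgeR adjusted p = 1). Of the 12 thyroid hormone synthesis genes, 11 had reads, 4 were tested, and 0 passed in either direction, with a median log2 fold change of -1.04 beside 0.19 for all genes. Iyd, the deiodinase that recycles iodine, was at -1.49 (-2.90 to -0.0817) and missed the threshold (edgeR adjusted p = 0.882). Slc26a4 had 0 reads in all 8 libraries, and Slc5a5, the iodide importer, had 1. Among the thyroid transcription factors, Zbtb20 was at 0.09 ± 0.649 and Foxe1 at -1.88 ± 0.919, and neither passed. Pax8 had 5 reads at 3 months and 6 at 6 months, too few for a test. The interval of Tg holds both falls and rises of more than 2-fold.

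Markers of other cell types were given for the same libraries. The C cell list had 1 of 3 tested genes called, Chga, which the parathyroid also expresses; Calca, which encodes calcitonin, had 12 reads at 3 months and 36 at 6 months (1.05 ± 1.04, edgeR adjusted p = 1). None of the 24 fibroblast genes tested passed (median 0.40): Dcn, the proteoglycan decorin, was at 6828 ± 2885 CPM and 6844 ± 4918 CPM, and Col1a1, a chain of type I collagen, at 0.18 ± 0.586 in log2. None of the 14 endothelial genes passed (median -0.31), and Kdr, the main VEGF receptor, was at -1.02 ± 1.01. The summed endothelial level was 508.8 to 3273 CPM at 3 months and 0 to 1507 CPM at 6 months, with 6-month replicate 3, the highest in Pth, at 470.6 CPM. Of 6 pericyte and smooth muscle genes, 0 passed, and Acta2, smooth muscle actin, was at -0.16 ± 0.583. The lymphocyte list of 13 genes had 0 reads in all 8 libraries, which over the group allows up to 14.9 CPM at 3 months and 8.39 CPM at 6 months. Of 16 macrophage and myeloid genes, 10 including Ptprc, the pan-leukocyte marker, had 0 reads.

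Haemoglobin genes had no call but large values. The beta-globin gene Hbb-bs had 0, 0, 0 and 24 reads at 3 months and 15, 71, 199 and 0 at 6 months (3.09 ± 0.936, edgeR adjusted p = 0.0903), and its near-identical neighbour Hbb-bt was at 3.01 ± 0.960 (0.138). Reads of such copies could be split between them in counting. The summed globin level was 0 in the 3 shallower 3-month libraries, 222.9 CPM in replicate 4, and 235.1, 1533, 1739 and 0 CPM at 6 months. It was highest in 6-month replicate 3, as Pth was, and its part in the result was not tested.

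**Figure D4:**
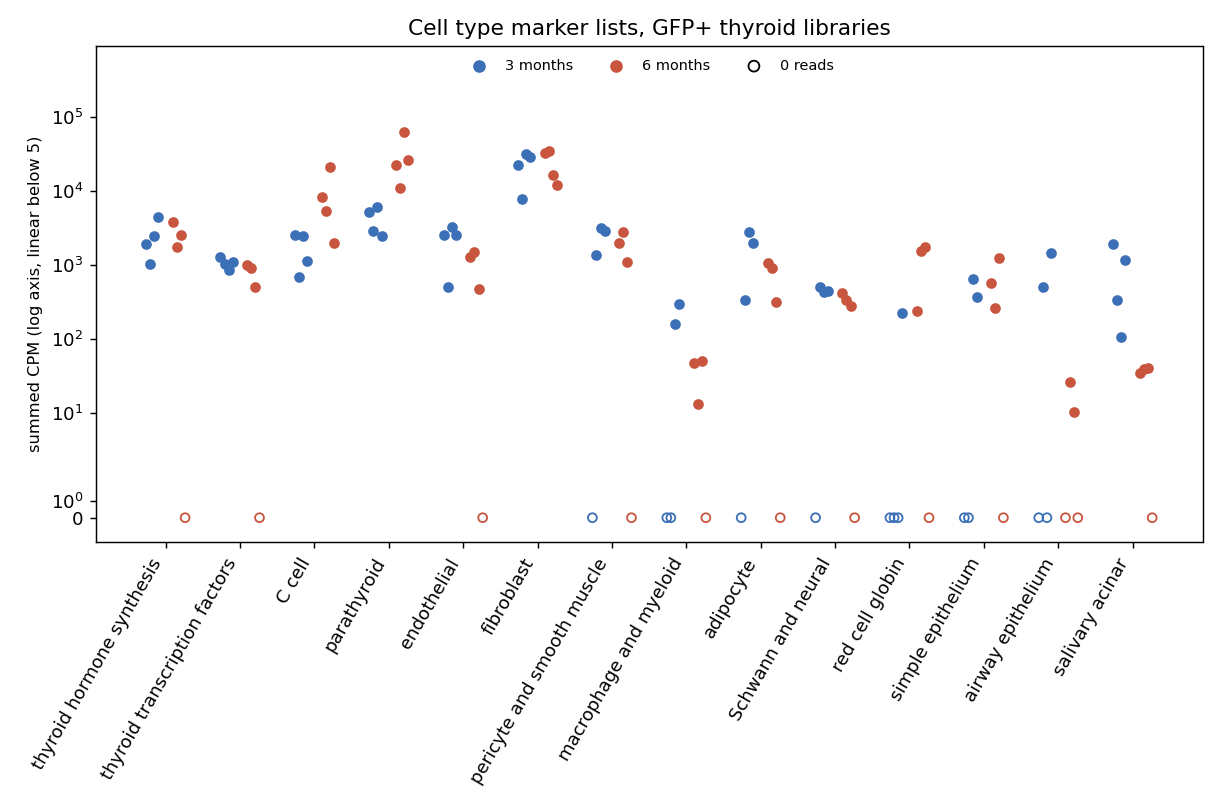
Summed CPM of each cell type marker list in each GFP+ thyroid library (log axis, linear below 5), 3 months in blue and 6 months in red, open symbols for 0 reads. Of the lists drawn, only the parathyroid list has all 6-month libraries above all 3-month libraries; lists with few reads have 0 in the shallow libraries.

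The name of the fraction, label-retaining, points to genes of the cell cycle. Of the 16 genes of the quiescence and CDK inhibitor list, all had reads, 6 were tested and 0 passed (median -0.35). The list also holds a cyclin, Ccnd2, so its median does not describe inhibitors alone. Cdkn1a, the inhibitor p21, was at 334.8 ± 262.9 CPM at 3 months and 254.1 ± 273.9 CPM at 6 months (0.31 ± 0.647, interval -0.96 to 1.58), Btg2, an antiproliferative factor, at -0.44 ± 0.666 and Ccnd2, a G1 cyclin, at -0.57 ± 0.647, all with an edgeR adjusted p of 1. The proliferation list had 6 of 16 genes at 0 reads in all 8 libraries, among them Mki67, Ccnb1 and Cdk1, and only the tubulin gene Tubb5 had enough reads for a test (0.27 ± 0.756). The summed level of the list was 184 CPM over the 3-month reads and 162.3 CPM over the 6-month reads.

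Immediate early genes, which are known to respond to tissue dissociation, were abundant at both ages. Of 17 tested, 0 passed (median 0.26). Fos had 2, 7, 31 and 379 reads at 3 months and 195, 106, 358 and 0 at 6 months (0.37 ± 0.728), Egr1 was at 0.35 ± 0.741 and Junb at 0.26 ± 0.730. Inflammation and NF-kB (11 tested, median 0.15, with Nfkbia at 0.15 ± 0.741) and heat shock genes (10 tested, median 0.80, with Hspa5, the chaperone BiP, at 0.97 ± 0.759 and Hspa1b at 1.42 ± 0.712) had 0 calls as well. So did the interferon and MHC class I list (8 tested, median 0.46, with B2m at 0.14 ± 0.706).

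Signalling and matrix lists had 0 calls too. They were secreted senescence factors (13 tested, median 0.47), the IGF axis (8, 0.24), TGF-beta and BMP (11, -0.09), Wnt (6, 0.34) and hyaluronan (5, 0.25). Igfbp4, a binding protein of insulin-like growth factors, was at 0.49 ± 0.693, Id3, a BMP target, at -0.09 ± 0.611, and Tnfaip6, which links hyaluronan, at -0.35 ± 0.664. Housekeeping lists had medians of 0.30 to 0.51: antioxidant and selenoprotein genes (19 tested, 0.38), nuclear genes of oxidative phosphorylation (35, 0.43), mitochondrial messenger RNA (7, 0.51) and cytosolic ribosomal proteins (76, 0.30), with 0 calls in each. Malat1, an abundant nuclear noncoding RNA, was at 0.95 ± 0.763 and highest in 6-month replicate 3, at 58600 CPM.

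The same ages in the GFP- fraction give the background for the change with age. There 2 genes (0.105%) rose and 1 (0.0526%) fell by edgeR at an adjusted p of 0.05, and none of the 14 genes called in GFP+ cells was among them. Pth, summed over libraries, was at 16124.9 CPM in the 3-month and 59001.2 CPM in the 6-month GFP- libraries, while the GFP+ libraries of these ages had 2775.4 and 40816.8 CPM. Its fitted change in GFP- was 1.54 (edgeR adjusted p = 0.467). Spp1 was at 2.07 ± 0.587, Kl at 2.12 ± 0.584, Gata3 at 2.18 ± 0.609, Tspan6 at 2.15 ± 0.644 and Kansl1l at 1.99 ± 0.597 in GFP- cells, with edgeR adjusted p of 0.0931 to 0.0995. The fitted values of all 12 genes that rose in GFP+ were above 0 in GFP- as well. At 9 months, over 3 libraries each, GFP+ cells had 10322.4 CPM of Pth and GFP- cells 25854.4 CPM.

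Whether the change with age differed between fractions was tested directly. In the interaction of age and fraction, edgeR called 0 of 1900 genes (0%), with 68 (3.58%) at an unadjusted p under 0.05, and DESeq2 also called 0. The interaction was 1.89 for Pth (unadjusted p = 0.0831), 2.68 for Spp1 (0.0182), 3.33 for Kl (0.0157) and 5.16 for Kansl1l (0.00280), each with an edgeR adjusted p of 1. Bpifa1 had the smallest p among the called genes, at -5.53 (0.000233, edgeR adjusted p = 0.442). None of the calls in GFP+ is thus shown to be particular to that fraction.

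Over 19 alternatives, the 14 called genes changed sign in 0 of 241 fitted values and stayed called in 145 of them. Values are missing where a gene had too few reads, and with the compared groups alone only Pth and Chga were tested. Pth was fitted at 2.19 to 4.0, Spp1 at 3.66 to 8.21, Kl at 4.29 to 7.31, Gata3 at 2.70 to 7.31, Gdpd1 at 2.72 to 6.72, Npnt at 1.99 to 7.69 and Bpifa1 at -6.51 to -2.44, so the sizes moved widely with the setting.

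**Figure D5:**
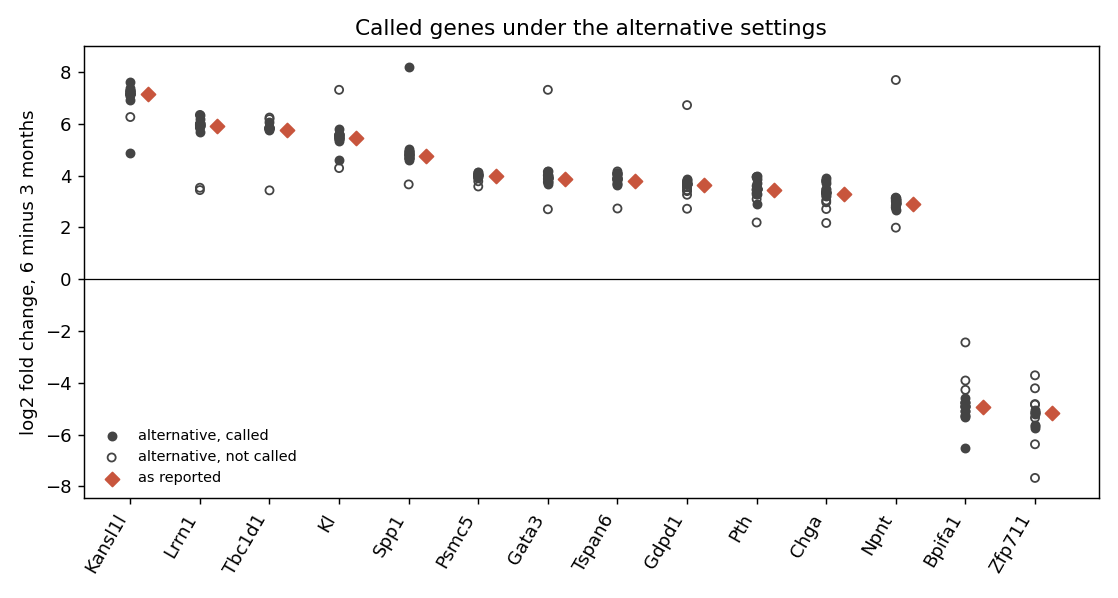
Fitted log2 fold change (6 minus 3 months, GFP+ thyroid) of each called gene as reported (red diamonds) and under each alternative (circles, filled where the gene was called and open where it was not). No value of a called gene crosses 0, and every gene has at least 1 open circle.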

How the data were processed

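Whole-number read counts per gene were used as deposited, 1 table per library. Per the labels' protocols, polyA RNA of freshly sorted cells was taken through a column kit with DNase treatment and a 3′ mRNA kit. Per the submitters' processing notes, bcl2fastq and the build mm9 were used; the aligner and counting program are not given in the sources used here. Tables had 47643 genes and 5 summary rows, the latter left out of library sizes and tests. Symbols were matched for 47224 identifiers (GENCODE vM21). Ribosomal RNA rows (25.1 to 44.8% of reads in genes in the 8 libraries) were kept. Within groups, 0 of 12 library pairs were identical (chi-square per degree of freedom 1.13 to 14.8).

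Groups followed the labels. All 22 thyroid libraries entered 1 edgeR 4.0.16 quasi-likelihood fit of 6 groups (R 4.3.3, limma 3.58.1; TMM factors 0.574 to 10.7 over the 22; filterByExpr, minimum 10, total 15; Benjamini-Hochberg at 0.05), with a biological coefficient of variation of 0.466. The fit was checked on simulated counts with changes of 2-, 4-, 8- and 16-fold. It called 2, 32, 72 and 90% of them in that order. At 4-fold it called 48% of rises and 16% of falls. The highest TMM factors were in GFP+ libraries of the comparison, 10.7 in 6-month replicate 4 and 3.59 in 3-month replicate 1. CPM carry no TMM factor. Where a group had 0 reads, fold bounds use 3 reads over the group.

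Named were up to 12 called genes a direction with reads in at least 2 libraries of the higher group, leaving out predicted genes and ribosomal RNA, the 8 smallest p-values where under 5 were called, members of each list, and 10 set genes. A gene that this rule names is not reported here. Members and lists were chosen with earlier results of these data known. Alternatives were other scalings, DESeq2 1.42.0, filters, sample sets, a replicate block, and leaving out each library.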

Additional observations from a re-analysis of the deposited data

Results flagged for a closer look

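In the GFP+ thyroid libraries, 117 groups of 4 values were examined for 1 library far from the other 3, by Dixon's ratio of the gap to the nearest over the whole range, at the 95% critical value. There were 23 such values. The critical value gives 1 in 20 groups by chance only for normal values of equal spread. Libraries of 507 to 195513 reads do not meet this, so the count cannot be set against that rate. In 14 of them the other 3 libraries were all at 0 reads, and 12 of the 23 were in 3-month replicate 4, the deepest at that age with 174957 reads in genes, itself far above the other 3.

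In that library Spp1 was at 22.9 CPM, Kl at 5.72, Gata3 at 22.9, Gdpd1 at 17.1, Npnt at 68.6, Psmc5 at 11.4 and Pax8 at 28.6 CPM. Its summed skeletal muscle genes were at 74.3 CPM, red cell globins at 223, basal and squamous epithelium at 97.2 and salivary duct at 22.9 CPM. In 3-month replicate 1, Acta2 and the summed Schwann and neural genes were at 0 CPM and Zbtb20 was at 1280 CPM, from 2 reads. In 3-month replicate 2, Zfp711 was at 2880 CPM and the ribosomal protein genes, at 19300 CPM, were below the others.

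At 6 months, Bpifa1 was at 13.1 CPM in replicate 2 and Zfp711 at 15.3 CPM in replicate 3, from 1 and 3 reads. Replicate 4 had 85.8% of its reads outside genes, Calca at 1970 CPM from 1 read, and 0 CPM for the salivary acinar list and for the quiescence and CDK inhibitor list.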

How the results depend on the processing

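Over 19 alternatives, the 14 called genes changed sign in 0 of 241 fitted values and stayed called in 145. Counts are given as higher and lower at 6 months, where 12 and 2 were reported. Library totals alone gave 7 and 5 (58.3% of calls higher against 85.7%, with the median of all genes 0.316 lower), DESeq2 gave 5 and 1, no filter on low counts 2 and 7 (22.2% higher), a stricter filter 3 and 0 (Spp1, Kl and Kansl1l), the compared groups alone 0 and 1 (Aqp1, of 404 genes tested; 11 at an unadjusted p under 0.05), all 28 libraries 7 and 5 (58.3% higher), and the 3 libraries under 10000 reads left out 5 and 1. With the compared groups alone, Pth (3.09, edgeR adjusted p = 0.0673) and Chga (2.97, 0.148) were the only genes of the 14 with enough reads for a test. The other called genes entered the reported fit by a filter over all 22 thyroid libraries. With library totals alone, Aqp1, Apold1, Grrp1 and Srgn were called lower beside Bpifa1. Other scalings and leaving out ribosomal RNA rows gave 11 to 15 and 2. Leaving out 1 library at a time gave 0 to 20 higher and 0 to 3 lower: 20 and 2 without 6-month replicate 4, 6 and 1 without 3-month replicate 2, 1 and 1 without 3-month replicate 4, and 0 and 0 without 6-month replicate 3. The cause of these shifts was not tested. Deviations of same-numbered GFP+ libraries at 3 and 6 months had correlations of -0.216, -0.156, 0.0807 and -0.378. Pairs 1, 2 and 4 each hold a library under 10000 reads, so this check cannot exclude pairing. GFP+ and GFP- libraries of the same number were not checked. With the replicate block, 3 genes were higher (Spp1, Kl and Kansl1l), 0 lower, and 1 gene (Gsto1) had an interaction; no other alternative gave an interaction call. Depth limits the 3-month side: 87.0% of its reads came from 1 library. Fitted values of uncalled genes changed sign in 132 of 1502 cases, so their printed values carry no call of direction.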

Other observations

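Secretory genes of other glands were seen at 3 months and were chosen after their values were known. Lipf, a gastric-type lipase, was at 0, 848, 0 and 1726 CPM at 3 months and had 0 reads in all 6-month libraries, at least 182-fold lower over summed reads (edgeR adjusted p = 0.636). Scgb3a1, a secretoglobin of airway and glandular epithelium, was at 0, 339.2, 0 and 1023 CPM at 3 months and had 0 reads at 6 months, and Lyz2, lysozyme of myeloid cells and glands, had 44 reads in replicate 4 and 0 elsewhere. Ltf, lactoferrin of glandular secretions, had 62 reads in replicate 4 and 2, 3, 0 and 0 at 6 months (-3.15, edgeR adjusted p = 0.0903). Replicate 4 holds 87.0% of the 3-month reads. Under alternatives, Lipf was called lower by DESeq2, Lipf, Scgb3a1 and Lyz2 were called lower with no filter on low counts, and Ltf was called lower without 3-month replicate 3.

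Epithelial adhesion genes were not called. Epcam had 0, 0, 3 and 16 reads at 3 months and 18, 4, 111 and 0 at 6 months (1.83 ± 0.735, edgeR adjusted p = 0.545), and Cdh1, E-cadherin, was at 1.65 ± 0.778 (0.850). Both had their most reads in 6-month replicate 3, where Pth also did, and which held 54.7% of all 6-month reads in genes.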
